A study of Arabidopsis thaliana with 36 samples.

Results

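The genes carried by the chloroplast genome were followed in seeds of the h3.3ko mutant and of the Col wild type. All genes whose identifier starts with ATCG were taken, which gave 88 of the 27655 genes in the expression table, beside 122 genes of the mitochondrial genome and 27445 nuclear genes. In the h3.3ko mutant of Arabidopsis thaliana, 2 of the H3.3 histone genes (HTR4 and HTR5) were mutated with CRISPR-Cas9 and HTR8 carried a T-DNA insertion. The h3.3ko seeds segregated from mother plants heterozygous for a pHTR5::HTR5 transgene and were picked for lack of its mCherry seed marker, so the mother plants carried a working H3.3 gene. Both genotypes were sampled as after-ripened mature seeds (MS), after 12, 24 and 48 h of cold stratification (S12h, S24h, S48h) and after a further 12 and 24 h in germination conditions (G12h, G24h), with 3 biological replicates of each, which gave 36 libraries in 12 groups. The replicates were described as independent, and what was kept separate between them was not stated further, so that part of their spread may be technical. Whole seeds were used, which mix embryo, endosperm and seed coat, so fewer cells of a type and less RNA per cell cannot be told apart in these values. According to the paper, Col seeds had finished germinating by G24h and h3.3ko seeds had not. Differences at G24h are thus between seeds at different points of germination.

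The chloroplast genome encodes core subunits of both photosystems, the cytochrome b6f complex, the ATP synthase and the NDH complex, the large subunit of Rubisco, a set of ribosomal proteins and the core of the plastid-encoded RNA polymerase (PEP). PEP needs nuclear sigma factors and a ring of nuclear polymerase-associated proteins (PAPs), whereas phage-type polymerases encoded in the nucleus transcribe rpoB, rpoC1, rpoC2, accD and ycf2 among others. Photosynthesis genes in green tissue depend mainly on PEP. In a germinating seed, plastids of the embryo that have lost most of their internal membranes develop again into chloroplasts, and ribosomes are needed early in that step.

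The expression table gives levels as TPM, transcripts per 1e+06 transcripts, in which a gene's reads are divided by its length and scaled to the same total in every library. The libraries held 17.03 to 19.39 M recovered reads (M, reads in units of 1e+06). The table lists identifiers only, so 81 of the 88 genes were named by matching the gene length recovered from the TPM steps, and where needed the neighbouring genes, to the RefSeq annotation, and the other 7 are given by identifier. By complex, the 88 genes held 20 photosystem genes, 26 for ribosomal proteins, 9 for the NDH complex, 6 for the ATP synthase, 6 for cytochrome b6f, 4 for RNA polymerase, rbcL and 9 others, beside the 7 without a name. The unnamed genes may belong to these complexes, so all counts and shares by complex cover named genes only. Sequence shared between genes limits some of the values: 13 of the named genes share their symbol with another, most as copies in the inverted repeat. Of these, the 114 bp entry of rps12 (ATCG00065) lies elsewhere, at Pltd:69611-69724, and is not such a copy. Among the named genes 14 are under 150 bp, which is shorter than 1 read. psbD overlaps psbC, atpB overlaps atpE, and psbN lies on the opposite strand between psbT and psbH, so their values are not cleanly separate. The libraries were made with the BGISEQ-500 RNA-seq kit, and the strand-specific libraries of the study are described as a separate set from mature seeds, with another kit. Whether RNA was selected for polyadenylation was not given in the sources used here.

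The sequences of 3 places illustrate these points. The short photosystem II gene psbM and the short ribosomal protein gene rpl36 are shown whole because they have a large part in the results, and the overlap of rpl22 and rps3 is shown because a read across it belongs to both. All are from the RefSeq chloroplast sequence (Pltd) of assembly TAIR10.1, on the minus strand, at Pltd:28707-28811, Pltd:79489-79602 and Pltd:83460-83489. Capitals mark the first codon of psbM and of rpl36, and in the last sequence the 16 bases shared by the end of rpl22 and the start of rps3.
psbM: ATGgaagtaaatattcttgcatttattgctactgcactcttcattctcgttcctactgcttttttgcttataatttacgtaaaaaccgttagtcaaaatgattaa
rpl36: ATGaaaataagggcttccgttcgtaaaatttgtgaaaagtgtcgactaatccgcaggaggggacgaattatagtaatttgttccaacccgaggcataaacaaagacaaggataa
rpl22 and rps3: gaggcctATGGGACAAAAAATAAatccact

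A bacterial-type promoter, the kind read by PEP, was looked for before each gene because psbA, which codes for the D1 protein of photosystem II, had the largest difference in mature seeds. The motif was TTGACA, then 15 to 18 bases of any kind, then TANNNT, within the 250 bases before the start of the gene. It was found in 3 of 81 such windows (3.7%) on the strand of the gene, those of psbA and of both copies of ycf1, and in 0 of 81 on the opposite strand. As a description without a test, the log2 fold change at MS (h3.3ko against Col) was 3.92 for psbA, 0.143 for ycf1 (ATCG01000) and 0.142 for ycf1 (ATCG01130). The ycf1 copies have the same motif sequence and are not separate cases, so the median of 0.14 for the 3 genes reflects ycf1 alone. It was 0.99 for the 73 tested genes without the motif. Other forms of the motif were not searched for, and with so few cases no conclusion is drawn from these values. In the sequences from Pltd:1530-1559 (minus strand) for psbA and from Pltd:129332-129359 (minus strand) for ycf1 (ATCG01130), capitals mark the motif and the spacers are 18 and 16 bases long.
psbA: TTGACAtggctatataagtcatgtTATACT
ycf1: TTGACAtaagagatgtcgtttcTAGTCT

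As a check of the labels, the H3.3 gene AT5G10980 lay between 1.47 and 2.99 TPM in mature h3.3ko seeds, against 132 to 143 TPM in mature Col seeds. The 3 H3.3 genes together lay between 309 and 350 TPM in mature h3.3ko seeds, against 545 to 575 TPM in mature Col seeds. Transcripts of the other H3.3 genes were thus still present in the mutant. Other features of the libraries moved with genotype. Seed storage protein genes, 9 in number, took 33.3 to 35.1% of all TPM in h3.3ko against 9.91 to 10.3% in Col at MS, and 15.6 to 18.4% against 0.023 to 0.046% at G24h. The endosperm marker EPR1 lay between 1405 and 1950 TPM in h3.3ko against 8371 and 10570 TPM in Col at MS, and between 6.68 and 12.7 TPM against 229 and 490 TPM at G24h. A further endosperm marker, EXPA2, was listed at 0 in all Col libraries at MS against 5.49 to 8.73 TPM in h3.3ko. At G24h its order was the opposite one, with 204 to 244 TPM in h3.3ko against 1393 to 1784 TPM in Col. The last marker, MAN7, lay between 24.4 and 26.9 TPM in h3.3ko against 2.01 and 2.54 TPM in Col at MS. At G24h its libraries overlapped (86.1 to 99.3 TPM in h3.3ko, 78.5 to 102 TPM in Col). The part of storage transcripts and of endosperm RNA in the differences below was not tested, except that the share of chloroplast transcripts is also given without the storage genes among the processing alternatives.

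Chloroplast genes took a larger share of all transcripts in h3.3ko than in Col seeds at MS, S12h and S24h, and a smaller share from S48h on. At MS the share was 0.446 ± 0.0211% in h3.3ko and 0.188 ± 0.0112% in Col (SD, n = 3 each), a ratio of 2.37. In stratified seeds the ratio of h3.3ko to Col was 1.52 after 12 h, 1.45 after 24 h and 0.665 after 48 h, and it was 0.292 and 0.353 at the 2 germination stages. The turn at S48h came with different courses in the genotypes: the share was 0.187 ± 0.0117% in h3.3ko and 0.281 ± 0.0152% in Col at S48h, and 0.554 ± 0.0521% in h3.3ko and 1.57 ± 0.287% in Col at G24h. The libraries of the genotypes did not overlap at any stage. With 3 against 3 libraries the exact permutation test cannot go below 0.1, and it gave p = 0.1 at each of the 6 stages (two-sided, adjusted p = 0.1 over the 6 stages). A mean over stages combines differences of both signs: it was −0.292 percentage points (h3.3ko minus Col, permutation within stages, p = 0.00619, adjusted p = 0.00743 over 6 such tests). Without the storage protein genes it was −0.203 points with permutation p = 0.0662. Without the single gene psbM, described below, the difference at S24h changed sign (−0.00131 points) and that at S12h was 0.0104 points (exact permutation p = 0.2), while those at MS (0.14), S48h (−0.15), G12h (−1.08) and G24h (−1.01) kept their sign.

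The mitochondrial genome, measured in the same way, showed no such turn. Its genes took 0.405 ± 0.0454% of all TPM in h3.3ko and 0.0866 ± 0.00938% in Col at MS (n = 3 each), and 0.375 ± 0.0264% and 0.0289 ± 0.00208% at G24h. Here the ratio of h3.3ko to Col was 4.67 in mature seeds, 4.32, 4.78 and 11.7 after 12, 24 and 48 h of stratification, and 12.9 and 13 in germination conditions. The mean difference within stages was 0.337 percentage points (permutation p = 1e-05, the smallest that 100000 resamples can give, adjusted p = 2e-05).

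**Figure D1:**
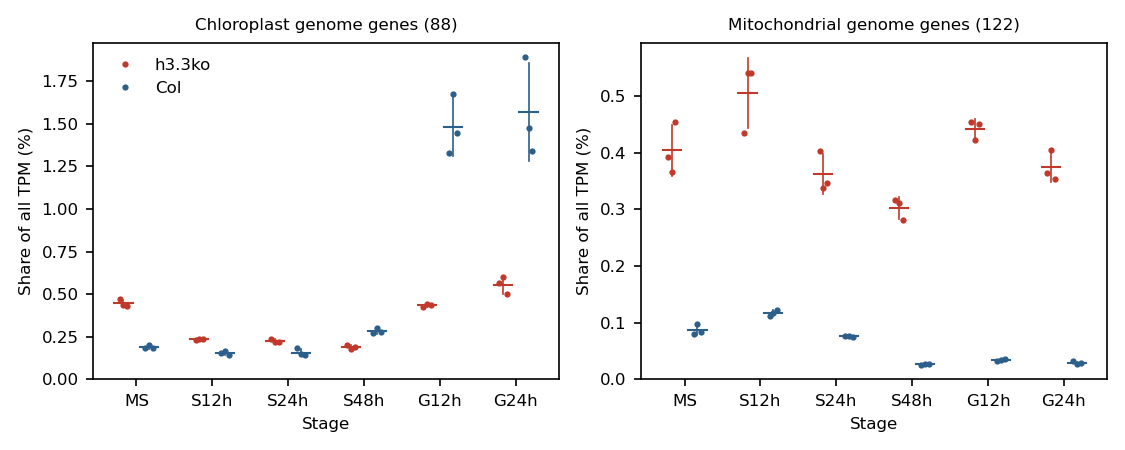
Share of all TPM (%, vertical axis) taken by the 88 chloroplast genes (left) and the 122 mitochondrial genes (right) at each stage (horizontal axis), h3.3ko in red and Col in blue. Points are libraries, and lines are the mean and SD of 3. The chloroplast share is higher in h3.3ko at MS (0.446 against 0.188%) and lower at G24h (0.554 against 1.57%), while the mitochondrial share is higher in h3.3ko at all 6 stages.

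Within the chloroplast total, photosystem transcripts had the larger share in h3.3ko and ribosomal protein transcripts the larger share in Col. The 20 photosystem genes held 47.3 ± 2.41% of chloroplast TPM in h3.3ko and 33.5 ± 3.31% in Col at MS. At S48h they held 45.3 ± 5.72% in h3.3ko and 10.6 ± 2.51% in Col, and at G24h 17.0 ± 2.39% and 7.01 ± 0.558% (SD, n = 3 each). No h3.3ko library overlapped with Col at any stage, and the mean difference within stages was 19.6 percentage points (permutation p = 1e-05, adjusted p = 2e-05).

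The 26 ribosomal protein genes had the opposite sign in TPM. They held 43.8 ± 2.26% in h3.3ko and 55.0 ± 2.92% in Col at MS, 45.7 ± 4.10% and 74.0 ± 1.38% at S48h, and 73.0 ± 1.78% and 82.9 ± 0.843% at G24h. The libraries did not overlap at any stage, and the mean difference was −16.2 points (permutation p = 1e-05, adjusted p = 2e-05). In both genotypes this group was at its lowest in mature or stratified seeds and took most of the chloroplast total under germination conditions.

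The 4 genes for PEP subunits and the 6 ATP synthase genes were minor parts of the total. RNA polymerase genes held 1.2 ± 0.131% in h3.3ko and 1.51 ± 0.224% in Col at MS, 1.67 ± 0.503% and 3.72 ± 0.522% at S48h, and 2.64 ± 0.400% and 2.07 ± 0.419% at G24h, the only stage at which the libraries overlapped. Their mean difference was −0.831 points (permutation p = 0.00013, adjusted p = 0.000195). Most of this share was rpoA, with a mean of 108 TPM over all libraries, against 4.84 for rpoB, 1.40 for rpoC1 and 0.945 for rpoC2. rpoA also belongs to the run from rpoA to rps19 described below. ATP synthase genes held 2.17 ± 0.222% in h3.3ko and 2.54 ± 0.197% in Col at MS, and 1.68 ± 0.211% and 0.847 ± 0.0505% at G12h. Their libraries overlapped at 4 of the 6 stages, not at S12h and G12h, and no mean difference passed the test (−0.151 points, permutation p = 0.228). Per stage, the exact permutation test gave p = 0.1 wherever libraries did not overlap (adjusted p = 0.126 over 24 tests). These shares are parts of 1 total and are not independent of each other.

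The photosystem share rested for the most part on psbM, whose product is a small subunit of photosystem II. At MS this gene alone held 39.2 ± 2.51% of chloroplast TPM in h3.3ko and 30.2 ± 3.14% in Col. At S48h it held 42.4 ± 5.68% and 8.48 ± 2.67%. As a level psbM stood at 1729, 1833 and 1668 TPM in h3.3ko and at 591, 536 and 572 TPM in Col at MS, with no overlap. The gene is 105 bp long, so that few reads weigh heavily once divided by length, and 28720 reads were recovered for it over the 36 libraries, against 401213 for rpl16, the ribosomal protein gene of the highest mean TPM (851 TPM for rpl16, 778 for rpl32 and 775 for psbM over all libraries). With psbM left out, the photosystem share was 13.3 ± 1.01% in h3.3ko and 4.64 ± 0.657% in Col at MS, 5.10 ± 0.793% and 2.27 ± 0.291% at S48h, and 1.47 ± 0.157% and 1.02 ± 0.0678% at G24h. It was higher in h3.3ko at all stages, with overlap of the libraries at S24h only (6.02 ± 0.605% against 5.21 ± 1.98%).

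The ribosomal share depended on psbM and on the unit. With psbM left out it was 72.0 ± 1.66% in h3.3ko and 78.9 ± 0.894% in Col at MS, 79.5 ± 1.88% and 80.9 ± 0.983% at S48h, and 86.6 ± 0.630% and 88.3 ± 0.426% at G24h. The libraries then overlapped at S12h, S24h and S48h, and the mean difference was −1.49 points (permutation p = 0.0684). Counted as recovered reads instead of TPM, without division by length, the ribosomal share was 53.7 ± 1.67% in h3.3ko and 50.7 ± 0.153% in Col at MS, 58.9 ± 0.779% and 50.2 ± 3.38% at S24h, and 59.3 ± 0.737% and 61.0 ± 1.04% at G24h, with a mean difference of 2.72 points in the opposite direction (permutation p = 0.00074). The photosystem share kept its direction in reads, at 17.0 ± 1.28% in h3.3ko and 7.12 ± 0.846% in Col at MS, and 2.86 ± 0.425% and 1.35 ± 0.211% at G24h.

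**Figure D2:**
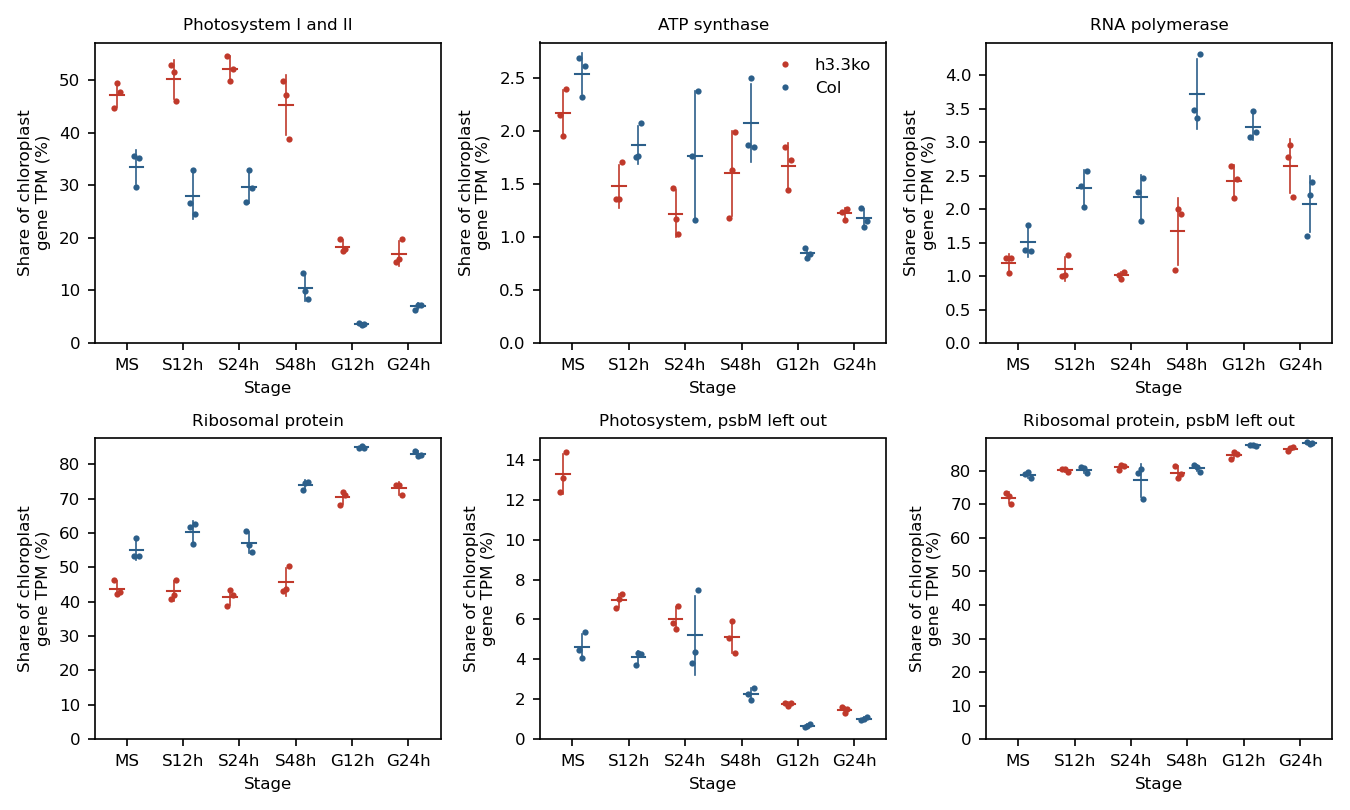
Share of the summed TPM of the 88 chloroplast genes (%, vertical axis, from 0) at each stage (horizontal axis) for photosystem, ATP synthase, RNA polymerase and ribosomal protein genes, and for the photosystem and ribosomal protein genes with psbM left out, h3.3ko in red and Col in blue. Points are libraries, and lines are the mean and SD of 3. The photosystem share is higher in h3.3ko throughout with or without psbM (S24h overlaps without it), while the ribosomal difference at S48h, 45.7 against 74.0%, becomes 79.5 against 80.9% without psbM.

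For single genes, a linear model (limma with a variance trend) was fitted to log2(TPM + 1) over 19052 genes with at least 1 TPM in at least 3 libraries, and a gene was called at an adjusted p under 0.05 with more than a 2-fold difference. Of the 88 chloroplast genes 79 entered the fit and 9 did not. Those 9, which include psbF, both ycf2 copies and both rpl23 copies, had mean levels of at most 0.192 TPM over all libraries. Because 1 was added to each value before the logarithm, the fold changes of low genes come out too small.

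In mature seeds, transcripts of the photosynthetic complexes were higher in h3.3ko. Of the 79 genes 40 were called higher, where the background was 8.55% of all genes tested, and 1 was called lower, where it was 10.6%. The median log2 fold change was 1.01 over the chloroplast genes and 0 over all genes. By complex, 16 of 19 tested photosystem genes rose (median 1.78), as did 5 of 6 cytochrome b6f genes (1.75), rbcL, 2 of 6 ATP synthase genes (0.90), 8 of 24 ribosomal protein genes (0.70) and 2 of 9 NDH genes. None of the 4 RNA polymerase genes was called by limma (median 0.50, 2 higher at an unadjusted p under 0.05, 1 called higher by voom, which models the recovered reads). When each library was scaled to its own chloroplast total instead, 13 genes were higher and 9 lower, the medians were 0.88 for photosystem and 0.96 for cytochrome b6f genes, and the signs for ribosomal (−0.08), RNA polymerase (−0.21) and NDH genes (−0.27) turned. Under that scaling the median over all genes was −0.87.

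The largest difference was that of psbA, the gene for the D1 reaction centre protein. It stood at 158, 138 and 156 TPM in the h3.3ko replicates and at 9.43, 9.04 and 8.60 TPM in the Col replicates, which gave 3.92 as the log2 fold change (adjusted p = 1.28e-18 by limma, SE 0.18). The genotypes were thus far apart, with little spread in either. In the later stages the gap was smaller: psbA was at 14.6, 15.5 and 11.3 TPM in h3.3ko against 5.59, 5.4 and 8.38 TPM in Col at S48h, which was not called, and at 4.83, 5.75 and 4.20 TPM against 7.35, 8.23 and 7.68 TPM at G24h, where the order was the opposite one.

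Other photosystem genes followed. For psbJ, a small photosystem II subunit, the values at MS were 30.6, 24.2 and 25.0 TPM in h3.3ko and 2.09, 1.42 and 3.98 TPM in Col (log2 fold change 3.04, SE 0.37, adjusted p = 1.47e-08). Its neighbour psbL, at 11.8, 5.39 and 8.75 TPM in h3.3ko, had 0.732 TPM in 1 Col replicate and was listed at 0 in the other 2 (2.95 on the log2(TPM + 1) scale, SE 0.46). Both genes are under 150 bp. The photosystem I core gene psaB had 4.83, 4.29 and 5.03 TPM in h3.3ko and 0.349, 0.515 and 0.370 TPM in Col (2.02, SE 0.18, adjusted p = 1.6e-11). For psbB, which codes for the CP47 antenna protein, the log2 fold change was 1.72, and for psaA, the other photosystem I core gene, it was 1.29. The libraries of h3.3ko and Col did not overlap for any of these genes.

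Among genes of other complexes and functions, rbcL, for the large Rubisco subunit, had 9.89, 9.0 and 9.24 TPM in h3.3ko and 1.72, 2.61 and 2.72 TPM in Col at MS (1.64, SE 0.19, adjusted p = 4.98e-09). petB, for cytochrome b6, had 6.96, 5.39 and 5.35 TPM in h3.3ko and 1.47, 0.962 and 1.24 TPM in Col (1.63, SE 0.24). clpP, a subunit of the plastid Clp protease, had 34.7, 32.3 and 35.6 TPM in h3.3ko and 9.16, 10.5 and 9.92 TPM in Col (1.70, SE 0.16). In each of these the highest Col library lay well below the lowest h3.3ko library. Of the 5 genes known to be read by the phage-type enzymes, accD, for a subunit of acetyl-CoA carboxylase, rose (1.06, SE 0.24, adjusted p = 0.00028), and the ycf2 copies were not tested. rpoC1 (0.355, limma adjusted p = 0.129) and rpoC2 (0.641, limma adjusted p = 0.00192) were higher in h3.3ko without overlap of the libraries, but were not called. The 1 added to each value makes the fold changes of such low genes too small. rpoB, for the beta subunit of PEP, stood at 1.25, 1.29 and 1.62 TPM in h3.3ko and 1.62, 1.82 and 1.11 TPM in Col with overlapping libraries.

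The 1 gene that fell in mature h3.3ko seeds was ndhH, a subunit of the NDH complex, at 3.96, 2.13 and 3.25 TPM in h3.3ko and 7.39, 9.30 and 6.97 TPM in Col (−1.13, SE 0.20, adjusted p = 8.22e-06). It fell short of the 2-fold limit (−0.944) without h3.3ko replicate 2. Between the genotypes the libraries of 62 of the 79 genes did not overlap at MS, where the background was 68.7% of all genes tested.

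**Figure D3:**
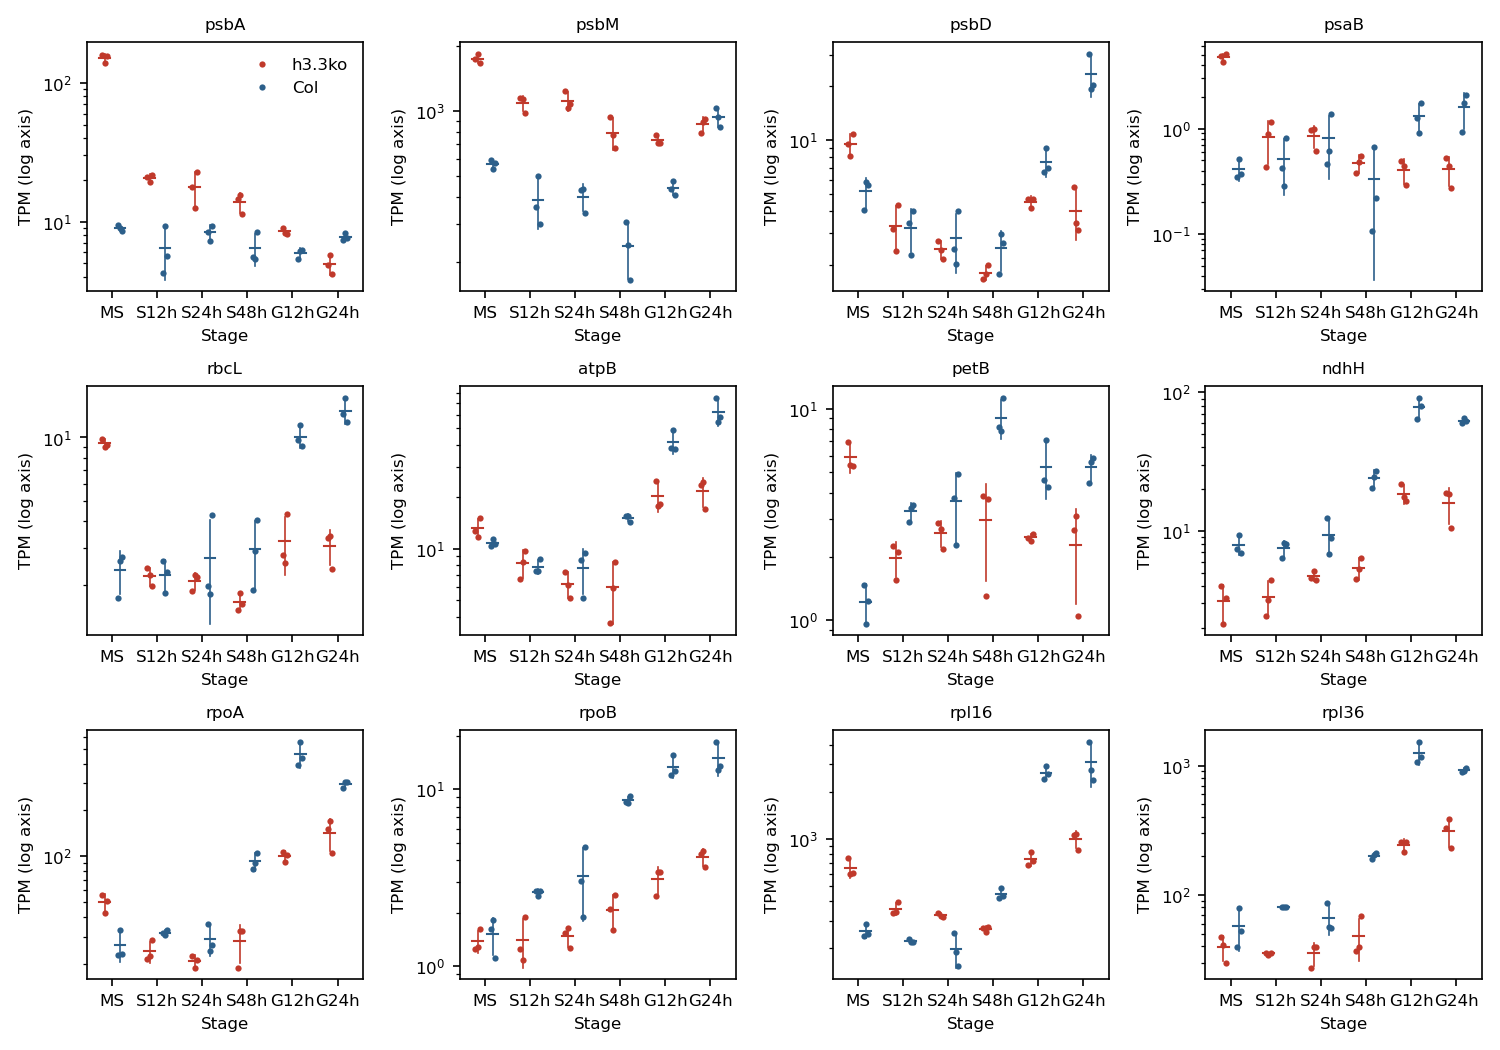
TPM (vertical axis, log scale) of 12 chloroplast genes at each stage (horizontal axis), h3.3ko in red and Col in blue. Points are libraries, and lines are the mean and SD of 3. For psbA the h3.3ko libraries lie between 138 and 158 TPM at MS against 8.60 to 9.43 TPM in Col, and for rpl36 they lie between 230 and 384 TPM at G24h against 888 to 963 TPM in Col.

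In early stratification few chloroplast genes were called. At S12h 6 of the 79 genes were called higher in h3.3ko (background 10.9%) and 3 lower (14.6%), and at S24h 3 higher (16.1%) and 2 lower (16.1%), so that fewer chloroplast genes were called than the background at both stages. The genes higher at S12h were psbA, psbM, psbJ, psbL, psaJ and rpl33, those lower included rpl36 and ndhA, and psbM, psbJ and rps14 were higher and petN and psbH lower at S24h. For psbM the values at S24h were 1231, 1027 and 1073 TPM in h3.3ko and 433, 436 and 337 TPM in Col (1.47, SE 0.16, adjusted p = 6.19e-10). For psbH the libraries overlapped. Scaled to the chloroplast total, 16 genes were lower at S12h and 24 at S24h. The S24h counts also moved with single Col replicates, to 8 lower genes without replicate 2 and to 5 higher genes without replicate 3.

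At S48h more chloroplast genes were lower than higher in h3.3ko, and they belonged to several complexes. Of the 79 genes 24 were called lower in h3.3ko and 3 higher, with a background of 17.8% in each direction, and the medians were −0.50 for the chloroplast genes and 0 for all genes. RNA polymerase genes fell in 3 of 4 cases (median −1.36), ribosomal protein genes in 9 of 24 (−0.60), NDH genes in 4 of 9, cytochrome b6f genes in 3 of 6 with 1 higher, and ATP synthase genes in 2 of 6. Of 19 photosystem genes 2 were higher and 1 lower (median −0.01, which became 0.45 when scaled to the chloroplast total, with 5 of 79 genes higher and 16 lower). The medians of the RNA polymerase, ribosomal, NDH, cytochrome b6f and ATP synthase genes were below 0 under either scaling.

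The gene with the largest fall was rpl36, whose whole sequence is given above. It stood at 36.6, 39.7 and 68.3 TPM in h3.3ko and at 188, 205 and 210 TPM in Col at S48h (−2.09, SE 0.22, limma adjusted p = 3.2e-10). rpoA, for the alpha subunit of PEP, was at 18.8, 32.7 and 32.4 TPM in h3.3ko and at 82.2, 89.7 and 106 TPM in Col (−1.72, SE 0.18, adjusted p = 4.55e-10). rpoB was at 2.1, 1.6 and 2.52 TPM in h3.3ko and at 8.45, 8.42 and 9.17 TPM in Col (−1.66, SE 0.17). The Col libraries lay above all h3.3ko libraries for each of these genes.

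Of the other genes named by role, atpB, for the beta subunit of the ATP synthase, was at 3.69, 5.91 and 8.39 TPM in h3.3ko and at 15.5, 15.5 and 14.3 TPM in Col (−1.26, SE 0.19). ycf1 (ATCG01130), a large open reading frame that in part lies in the inverted repeat, was at −1.59 (SE 0.15) and petB at −1.40 (SE 0.24). In the opposite direction psbM was at 938, 770 and 673 TPM in h3.3ko and at 305, 241 and 166 TPM in Col (1.77, SE 0.16, adjusted p = 9.3e-12). The calls of psbL and petG as higher rest on libraries that overlap. Levels of rbcL (1.52, 1.83 and 1.62 TPM in h3.3ko against 1.90, 2.88 and 4.07 TPM in Col) and accD (0.355, 0.575 and 0.227 against 0.243, 0.499 and 1.25 TPM) were not called.

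Under germination conditions the chloroplast genes were lower in h3.3ko than in Col, as TPM levels. At G24h only the Col seeds had germinated, so genotype and progress of germination are not separated there. At G12h limma called 0 of 79 higher (background 10.2%, 2 at an unadjusted p under 0.05, 0 by voom) and 31 lower (background 17.6%). At G24h it called 0 higher (background 9.63%, 0 at an unadjusted p under 0.05, 0 by voom) and 41 lower (background 29.4%), with a median of −1.01 against −0.39 over all genes. Scaled to the chloroplast total, this direction was lost, with 12 genes higher and 0 lower at G12h and 2 higher and 0 lower at G24h. In that scaling the median over all genes was 1.14 at G12h and 0.69 at G24h.

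By complex at G24h, 17 of 24 ribosomal protein genes fell (median −1.38), as did 3 of 4 RNA polymerase genes (−1.17), 5 of 6 cytochrome b6f genes (−1.04), 5 of 9 NDH genes (−1.21), 3 of 6 ATP synthase genes, 5 of 19 photosystem genes (−0.75) and rbcL, and none of these medians was beyond 0.10 in size when scaled to the chloroplast total except RNA polymerase (−0.14), with rbcL at −0.46. At G12h the 4 RNA polymerase genes and 14 of 24 ribosomal protein genes fell, against 2 of 19 photosystem genes, with medians of −1.63, −1.68 and −0.51 that became −0.22, −0.09 and 0.32 in that scaling.

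The largest fall at G24h was that of psbD, for the D2 reaction centre protein, at 5.42, 3.43 and 3.15 TPM in h3.3ko and 30.3, 19.3 and 20.4 TPM in Col (−2.28, SE 0.20, limma adjusted p = 4.55e-12). psbD overlaps psbC, for the CP43 antenna protein, which fell as well (−1.90, SE 0.21). rps19 was at 118, 133 and 79.5 TPM in h3.3ko and at 609, 445 and 425 TPM in Col (−2.17, SE 0.20), and its neighbour rpl22 fell by 2.09 on the log2 scale. Each of these had every h3.3ko library below every Col library.

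The most abundant gene, rpl16, had 1067, 1071 and 850 TPM in h3.3ko and 4178, 2774 and 2372 TPM in Col at G24h (−1.61, SE 0.15, adjusted p = 1.66e-11). At MS, by contrast, it had been higher in the mutant, at 757, 598 and 604 TPM in h3.3ko and 241, 288 and 247 TPM in Col (1.33, SE 0.15). rbcL also had opposite signs at these stages, with 3.35, 3.42 and 2.39 TPM in h3.3ko and 12.9, 15.4 and 11.9 TPM in Col at G24h (−1.83, SE 0.19). atpB fell to 23.4, 24.5 and 16.9 TPM in h3.3ko, against 75.5, 54.8 and 58.0 TPM in Col (−1.50, SE 0.20). Scaled to the chloroplast total, the values of rpoA and petB at G24h had the opposite sign (0.39 and 0.09).

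Some genes stood outside this pattern at G24h. psbM was at 787, 890 and 921 TPM in h3.3ko and at 1032, 941 and 845 TPM in Col, with overlapping libraries. accD was at 0.643, 0.731 and 0.345 TPM in h3.3ko and at 0.327, 0.579 and 0.403 TPM in Col, close to the lower limit of what was tested. The libraries of 32, 27 and 39 of the 79 genes did not overlap in seeds stratified for 12, 24 and 48 h (background 77.7%, 79.3% and 81.7%), and those of 57 and 64 genes in seeds given 12 and 24 h of germination (80.0% and 84.0%), so that all 5 shares were below the background.

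**Figure D4:**
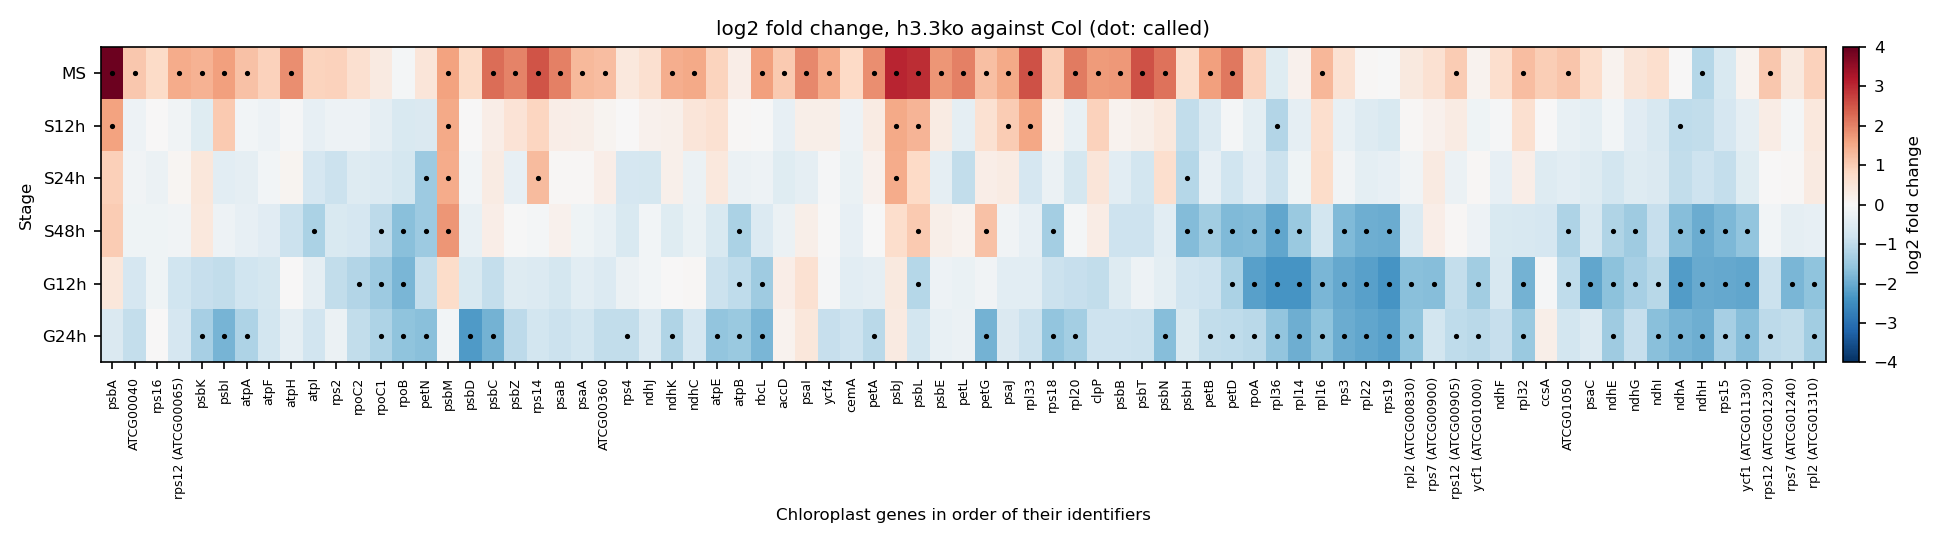
log2 fold change of TPM + 1, h3.3ko against Col (colour, red higher in h3.3ko and blue lower), for 77 of the 79 tested chloroplast genes in order of their identifiers (horizontal axis) at each stage (vertical axis). Dots mark called genes, 40 higher at MS and 39 lower at G24h among those shown. The block of genes from rpoA to rps19 is blue from S48h on, but rpoA had the opposite sign at G24h (0.39) when libraries were scaled to their chloroplast total.

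Along the genome some neighbours had like fold changes. The 7 genes rpoA, rpl36, rpl14, rpl16, rps3, rpl22 and rps19, on the minus strand of a ribosomal protein cluster that bacteria and plastids share, were picked out after their values had been seen and are described without a test. At MS 1 of the 7 was called higher in h3.3ko and the median was 0.18. At S48h 6 were called lower (background 17.8%) with a median of −1.77, and at G12h (17.6%) and G24h (29.4%) all 7 were, with medians of −2.18 and −1.95. In the chloroplast scaling 4 of the 7 were lower at MS (median −1.06) and 5 at S48h (−1.19), and 0 were called at G12h (−0.42) and G24h (−0.46). As a share of chloroplast TPM the 7 genes held 24.3 ± 2.39% in h3.3ko and 32.5 ± 3.0% in Col at MS, 29.3 ± 3.08% in h3.3ko and 50.7 ± 2.25% in Col at S48h, and 45.2 ± 3.78% in h3.3ko and 55.1 ± 2.73% in Col at G24h, of a total that includes psbM.

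The run from ndhA to ycf1 (4 genes, Pltd:119847-129244, minus strand, TAIR10.1) was described likewise. At MS 1 of 4 was lower, and 4 of 4 were lower at S48h (median −1.75), G12h (−2.06) and G24h (−1.78). In the chloroplast scaling 3 were lower at MS, 4 at S48h and 0 at G12h and G24h. It held 2.58 ± 0.304% of chloroplast TPM in h3.3ko and 6.76 ± 0.645% in Col at MS, and 4.12 ± 0.365% and 9.17 ± 0.372% at S48h. Genes in 1 run can be read from 1 promoter, so that they are not independent measurements.

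The time course was then compared within each genotype. For S48h against MS, 0 of 79 genes were called higher in h3.3ko by limma (background 51.0%, 2 at an unadjusted p under 0.05, 0 by voom) and 45 lower (background 3.21%), with a median of −1.15 against 1.03 over all genes. In Col 22 were called higher (background 48.2%) and 2 lower (background 10.3%), with a median of 0.45 against 0.92 over all genes. Scaled by medians of ratios, which moves the all-gene medians to 0.01 in h3.3ko and 0.05 in Col, the counts were 75 lower in h3.3ko and 2 higher and 18 lower in Col (median −0.45), so the direction in Col depends on the scaling. The same scaling left the sign in h3.3ko as it was.

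The difference of the changes was tested as an interaction, with 0 genes called higher (background 19.5%, 0 at an unadjusted p under 0.05, 0 by voom) and 67 of 79 called lower (background 16.9%) and a median of −1.62 against 0.03 over all genes. Scaled to the chloroplast total 1 was higher and 9 lower. petB had the largest interaction among the genes named here (−3.04, SE 0.34, limma adjusted p = 1.8e-09): its levels were 3.88, 1.31 and 3.75 TPM at S48h in h3.3ko against 6.96, 5.39 and 5.35 TPM at MS, and 8.18, 7.82 and 11.3 TPM at S48h in Col against 1.47, 0.962 and 1.24 TPM at MS. For psbA it was −2.92 (SE 0.25, adjusted p = 5.59e-12), and psbM had no interaction that passed the test (0.15, SE 0.22). Of the 7 genes from rpoA to rps19, 2 fell in h3.3ko between MS and S48h (median −0.60) and 6 rose in Col (median 1.42), while in the chloroplast scaling 2 rose in h3.3ko (median 0.63) and 3 in Col (0.85).

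For G24h against S48h more genes rose than fell in both genotypes as TPM levels, a direction that was lost when libraries were scaled to their chloroplast total. In h3.3ko 25 genes were called higher (background 8.76%) and 1 lower (background 12.4%), with a median of 0.64 against −0.07 over all genes. In Col 50 were called higher (background 29.1%) and 1 lower (background 13.4%), with a median of 1.30 against 0.21. All 7 genes from rpoA to rps19 rose in both, with medians of 2.31 in h3.3ko and 2.47 in Col, and in the chloroplast scaling 1 rose in h3.3ko and 0 in Col.

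Genes that differed between genotypes in this step were fewer. The step ends at G24h, when only the Col seeds had germinated. The interaction called 0 of 79 higher (background 9.76%, 5 at an unadjusted p under 0.05, 2 by voom) and 16 lower (background 29.7%), a share below the background. The interaction turned to 14 higher and 3 lower when libraries were scaled to the chloroplast total. psbD had the largest among the named genes (−1.99, SE 0.28), with 0.80 in h3.3ko and 2.80 in Col, followed by psbM (−1.88, SE 0.22), with 0.14 in h3.3ko and 2.02 in Col, and psbA (−1.57, SE 0.25), with −1.32 in h3.3ko and 0.25 in Col. Within each genotype, scaling to the chloroplast total moved the counts to 3 higher and 12 lower in h3.3ko and to 2 higher and 24 lower in Col, so the direction turned in both. The interactions use the same MS, S48h and G24h libraries as the comparisons between genotypes, so they are no separate evidence.

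Nuclear genes for plastid transcription were examined beside these. Of the 12 PAP genes, which form the ring around PEP, 3 fell and 1 rose in mature h3.3ko seeds (median −0.80, background 10.6% lower and 8.55% higher). All 12 fell at S48h (median −2.08, background 17.8%) and 9 at G24h (−1.46, background 29.4%), where the medians over all genes were 0 and −0.39. PAP10, a thioredoxin-like member, stood at 12.4, 12.3 and 11.6 TPM in h3.3ko and at 87.1, 92.0 and 88.5 TPM in Col at S48h (−2.79, SE 0.08, limma adjusted p = 1.99e-24). It was low in h3.3ko already at MS, at 2.02, 2.47 and 1.79 TPM against 14.0, 14.1 and 13.5 TPM in Col (−2.27, SE 0.08).

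Of the 6 sigma factors, which give PEP its promoter specificity, 1 rose at MS (SIG4, 1.07, background 8.55%), 3 fell at S48h (17.8%) and 4 at G24h (29.4%). SIG6 was at 13.8, 12.9 and 12.8 TPM in h3.3ko and at 70.1, 75.1 and 78.0 TPM in Col at S48h (−2.41, SE 0.09). SIG5 went against the list there, with 1.24, 1.42 and 1.29 TPM in h3.3ko and 0.149, 0.497 and 0.115 TPM in Col, short of the 2-fold limit (0.90, SE 0.10). Of the 3 phage-type polymerases RPOTp, the plastid enzyme, fell at MS (−1.20, SE 0.11) and at S48h, with 15.3, 13.8 and 17.1 TPM in h3.3ko and 64.8, 66.5 and 73.5 TPM in Col (−2.09, SE 0.11), and 0 of the 3 passed the 2-fold limit at G24h (RPOTp −0.95, SE 0.11, limma adjusted p = 3.09e-09).

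Nuclear genes for subunits of the same complexes were the last list. Of 26 such genes 5 rose and 1 fell in h3.3ko at MS (median 0.46, background 8.55% higher and 10.6% lower). In the later stages 9 fell at S48h (background 17.8%), 21 at G12h (17.6%) and 25 at G24h (29.4%), where the median was −3.47 against −0.39 over all genes. RBCS1A, for the small subunit of Rubisco, was at 207, 219 and 237 TPM in h3.3ko and at 13.7, 12.6 and 14.3 TPM in Col at MS (3.93, SE 0.08, adjusted p = 3.14e-27). At G24h it was at 518, 535 and 666 TPM in h3.3ko and at 2845, 2572 and 2534 TPM in Col (−2.21, SE 0.08). PSBO1, for the oxygen-evolving protein of photosystem II, was at 9.53, 8.11 and 7.82 TPM in h3.3ko and at 143, 136 and 166 TPM in Col at G24h (−3.97, SE 0.12). The 1 gene of the list not called there was ATPG (−0.62, SE 0.07).

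**Figure D5:**
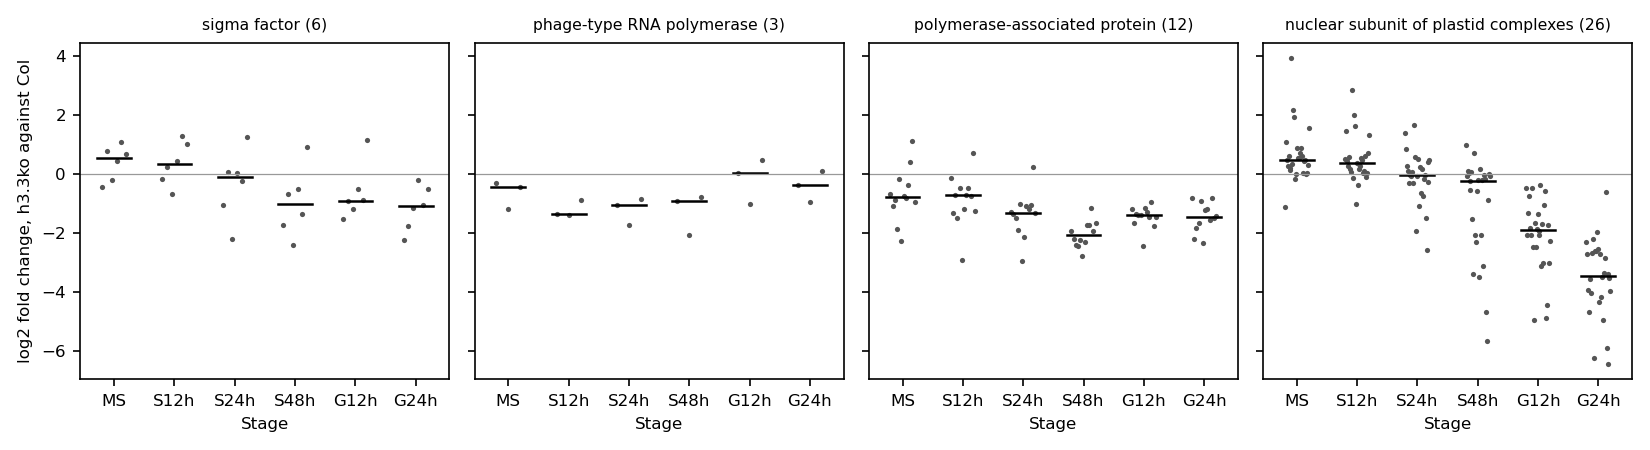
log2 fold change of TPM + 1, h3.3ko against Col (vertical axis), at each stage (horizontal axis) for nuclear genes for 6 sigma factors, 3 phage-type polymerases, 12 polymerase-associated proteins and 26 subunits of plastid complexes. Points are genes and bars are list medians. The median of the polymerase-associated proteins is lowest at S48h (−2.08) and that of the nuclear subunits at G24h (−3.47).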

How the data were processed

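The deposited table holds TPM for 27655 genes in 36 libraries, made by the authors with fastp 0.20.1, HISAT2 2.1.10 on TAIR10, HTSeq 0.11.2 and R. TPM sums to the same total in each library, so a level is a share of all transcripts and moves with any abundant transcript. Whole reads were recovered from the TPM steps for 24897 of 24902 genes (99.98%, tolerance 0.03 reads). They were used for depth, gene lengths, read counts of single genes, the alternative test (voom) and the alternative shares counted in reads. The model was fitted with limma 3.58.1 in R 4.3.3 to log2(TPM + 1), all 12 groups together, over genes with at least 1 TPM in at least 3 libraries, with Benjamini-Hochberg adjustment over 19052 genes per comparison. It was tested on simulated data, but the outcome is not reported here, so no error rate is given. Shares were compared with permutation tests (scipy 1.17.1, Python 3.11.15). The h3.3ko and Col replicate numbers were checked for pairing: at S12h all 3 same-number correlations were above 0.1 (0.249, 0.285 and 0.187), at the other stages not, and no source ties the numbers together.

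Names of chloroplast genes came from length matches to RefSeq (TAIR10.1): 57 by length alone, 15 by length and neighbours and 1 by elimination. For the other 8 several lengths fitted the TPM steps, and the neighbours decided. Genes named were those with a set role in each complex, the most abundant of each complex, and the 3 with the largest called fold change without overlap in each direction at MS, S48h and G24h; 2 genes are not reported here. The genes and lists were chosen with earlier results of these data known. The alternatives were another pseudocount, no filter, median-of-ratios and chloroplast-total scaling, voom on recovered reads, shares counted in recovered reads and a replicate block. Others left out each replicate, the storage genes, rpl16, genes whose symbol occurs more than once, psbM or genes under 150 bp. The last 2 were chosen after seeing the data.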

Additional observations from a re-analysis of the deposited data

Results flagged for a closer look

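The changes over time differed between the genotypes by the interaction term of the limma fit for the genes below. Between MS and S48h 67 of 79 chloroplast genes were called lower in h3.3ko relative to Col (background 16.9% of all genes), and 9 lower and 1 higher when libraries were scaled to their chloroplast total. Among the named genes the interaction, in log2 units and h3.3ko minus Col, was −3.04 for petB, −2.92 for psbA, −2.64 for rpoA, −2.56 for psbB, −2.34 for psbJ, −2.18 for rbcL, −2.07 for rpl16, −2.02 for rpl22 and −1.97 for rps19. It was −1.94 for petN, −1.90 for psbL, −1.85 for psaB, −1.73 for ycf1 (ATCG01130), −1.62 for psaJ, −1.61 for rpl36, −1.59 for rpoB, −1.51 for atpB and −1.50 for atpE. It was −1.47 for atpA and for psaA, −1.41 for rpoC1 and for clpP, −1.30 for rpoC2, −1.29 for accD, −1.26 for ATCG00040 and −1.06 for psbD.

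Between S48h and G24h 16 of 79 chloroplast genes were called lower by the interaction, a share below the background of 29.7%, and scaled to the chloroplast total 14 were higher and 3 lower. It was −1.99 for psbD, −1.88 for psbM, −1.79 for psbL, −1.57 for psbA, −1.30 for rbcL, −1.11 for clpP and −1.02 for psaB.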

How the results depend on the processing

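Scaled to the chloroplast total, the counts of higher and lower genes in h3.3ko against Col were 13 and 9 at MS, 1 and 24 at S24h, 12 and 0 at G12h and 2 and 0 at G24h, with 16 lower at S12h and 5 higher at S48h. For S48h against MS they were 8 and 15 in h3.3ko, 12 and 8 in Col and 1 and 9 in the interaction, and for G24h against S48h 3 and 12, 2 and 24, and 14 and 3. At G24h rpoA (0.394) and petB (0.0883) changed sign there. Scaled by medians of ratios, the counts were 0 lower at S12h, 1 higher at S48h, 75 lower for S48h against MS in h3.3ko, 2 higher and 18 lower in Col, and 2 higher and 8 lower in the interaction for G24h against S48h. A pseudocount of 0.1 gave 5 lower at S12h, 5 higher and 8 lower at S24h, 5 lower for S48h against MS in Col and 2 higher in the later interaction. voom gave 5 higher and 6 lower at S24h, 40 higher for G24h against S48h in h3.3ko and 2 lower in Col, 14 higher and 13 lower for S48h against MS in Col, and 2 higher in the later interaction. The cause of these shifts was not tested. The other 103 counts under these alternatives stayed within 1.5 times.

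In shares (percentage points, h3.3ko minus Col), reads in place of TPM gave 0.0042 for ATP synthase genes at S48h and a mean over stages of 0.00113, and for ribosomal protein genes 2.98 at MS, 4.63 at S12h, 8.78 at S24h, 2.21 at S48h and a mean of 2.72. Without psbM, ATP synthase genes were at 0.262 (S12h), 0.0541 (S24h), 0.49 (S48h) and 0.343 (mean), ribosomal protein genes at 4.01 (S24h) and −1.49 (mean, permutation p = 0.0684), and the chloroplast share of all TPM at −0.00131 (S24h). Without genes under 150 bp, ATP synthase genes were at 0.199 (S12h), 0.494 (S48h) and 0.338 (mean) and ribosomal protein genes at 2.0 (S12h), 4.55 (S24h), 0.452 (S48h) and −0.2 (mean, permutation p = 0.799). Without the storage genes the mean for the chloroplast share was −0.203 (permutation p = 0.0662). The other 196 shares kept their direction and their side of the 0.05 threshold. Per stage that side was fixed in advance, because tests of 3 against 3 libraries cannot go below 0.1. Only the means over stages could change side.

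Leaving out single replicates kept 155 counts of calls within 1.5 times and moved 13 counts. All 216 share differences kept their sign, which was all that was compared for them, while their sizes moved. The difference for ATP synthase genes at S24h, for example, ranged from −0.848 to −0.239 points. At S24h the counts ranged from 2 to 5 higher and from 2 to 8 lower, and at MS from 0 to 1 lower. Lower genes ranged from 1 to 2 for G24h against S48h in h3.3ko and for S48h against MS in Col. The interaction for G24h against S48h ranged from 0 to 1 higher and from 10 to 19 lower, with 10 without h3.3ko S48h replicate 3. With the replicate block no count moved by more than 1.5 times (7 higher and 3 lower at S12h, against 6 and 3 without it). Genes below 3 recovered reads per library cannot be told from 0, which limits psbL, petL, petG, psbN and the 9 genes that were not tested. Over the 36 libraries psbL had 82 recovered reads, petL 52, petG 53 and psbN 62. Each of these was nonetheless among the genes called higher at MS.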

Other observations

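Base composition was compared with level, as a description without a test. The 13 chloroplast genes of the highest mean TPM had a median adenine content of 38.7% on their coding strand (lowest 28.6%, in psbM), against a median of 30.3% for the other 68 named genes. Most of the 13 were ribosomal protein genes. The ribosomal protein genes of lower level also lay above 30.3%, from 32.3% in rps2 to 36.8% in rpl33. Level and gene class were thus not separated. The cytochrome b6f genes held 1.10 ± 0.0511% of chloroplast TPM in h3.3ko and 0.970 ± 0.199% in Col at MS, and 0.978 ± 0.347% and 1.76 ± 0.495% at S48h (SD, n = 3 each). The 9 NDH genes held 1.15 ± 0.132% in h3.3ko and 1.53 ± 0.0792% in Col at MS, and 1.46 ± 0.242% and 2.47 ± 0.174% at S48h, with no overlap of the libraries at either stage.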
